A study of Mus musculus with 24 samples.

Results

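The genes described here make cholesterol and fatty acids, regulate those pathways or answer to sterols. They were chosen by symbol in the platform's annotation, from a list of 35 genes. Of these, 34 were measured, out of 18193 genes in all, and Acat2 is not analysed here. They fall into 17 genes of sterol synthesis, 6 of regulation by sterol regulatory element-binding proteins (SREBPs) and sterol carriage, 3 targets of the liver X receptors (LXRs), and 8 of fatty acid synthesis. Where a gene had several probe sets, which are groups of short probes against 1 transcript, the set with the highest mean over the arrays stands for it. A total of 24 members had more than 1 set.

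RNA came from retinal endothelial cells in culture. Their donors were adult mice of both genders, on a C57Bl6/129 mixed background. The cells were wild type or Fz4-/-, that is, without Frizzled4, the endothelial receptor for the secreted ligand Norrin. All cells of both genotypes carried the Immorto-mouse transgene, in which the interferon-responsive H2Kb promoter drives a temperature-sensitive SV40 large T antigen that keeps cells dividing in culture. RNA was prepared after growth at 37 °C without interferon gamma. Each genotype was cultured in 4 ways: on gelatin, on the basement membrane extract Matrigel, with control human HEK293 cells, or with HEK293 cells that stably express Norrin. Each of these 8 groups had 3 arrays, 24 in all. Cells for Matrigel were first kept for 24 hours in medium with 1% serum, then lifted, replated and harvested after 6 hours. The labels describe co-culture RNA as a mouse and human mixture in about equal parts. They do not say how many lines stood for a genotype, so a difference between lines and a difference due to the genotype cannot be told apart.

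Cholesterol is built from acetyl-CoA through mevalonate, isoprenoids, squalene and lanosterol. When membranes hold little sterol, SCAP carries SREBP proteins out of the endoplasmic reticulum to be cut, and the freed part switches on the genes of sterol and fatty acid synthesis. INSIG proteins hold the SCAP and SREBP complex back when sterol is plentiful. LXRs work in the opposite situation: oxysterols activate them, and they induce the transporters ABCA1 and ABCG1, which export cholesterol. Norrin binds Frizzled4 on retinal endothelium and signals through beta-catenin, a pathway needed for the retinal vasculature to form.

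Values are log2 intensities, and 1 unit is a doubling. The median over all probe sets was 5.02 to 5.11 on the 12 arrays of cells alone, 3.44 to 3.52 on the wild type co-cultures and 3.21 to 3.31 on the Fz4-/- co-cultures. Arrays within 1 of these ranges are called an array set here. The labels name no such sets, and what shifts the medians was not tested. Genotype and array set coincide in the co-cultures and cannot be told apart there. Fzd4, the gene deleted, was lower in Fz4-/- cells in all 4 conditions, by 3.42 to 3.74 in size, and on gelatin it averaged 8.70 ± 0.35 (SD, n = 3) with the gene and 5.06 ± 0.44 without it. In every group but the Fz4-/- co-cultures with control cells, replicates 2 and 3 resembled each other more than either resembled replicate 1. In those groups the differences over genes had an SD of 0.147 to 0.193 between the former and 0.203 to 0.354 from the latter. The gap was small in Fz4-/- co-cultures with Norrin, at 0.182 against 0.226 and 0.203. The 12 endothelial markers summed to a linear intensity of 23949 to 38615 in cells alone. Markers of pericytes and smooth muscle, fibroblasts, glia, microglia, and neurons each summed to 1208 or less on every array.

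Promoters were read because SREBPs act through sterol regulatory elements beside CCAAT boxes, which bind the cofactor NF-Y. RefSeq's promoter table (build GRCm38.p6), searched in the 250 bases before each start, held 26 of the 34 members. The members not in it are Sqle, Fdps, Fdft1, Stard4, Abcg1, Scd1, Scd2 and Fads1. The letters CCAAT, read on both strands, occurred in 14 of 14 sterol synthesis genes matched and in 1 of 5 fatty acid synthesis genes. Over all 27025 genes of the table the share was 37.5%, and over the 26 members 76.9%. The sterol element TCACNCCA, where N is any base, occurred in 3 of 26 members (11.5%) against 4.2% of all genes, and those members were Hmgcs1, Msmo1 and Srebf2. GGGCGG, the core letters of a GC box, occurred in 22 of 26 members (84.6%) against 35.4%. The LXR element, AGGTCA repeated after a gap of 4 bases, occurred in 0 members and in 0.0148% of genes. CCAAT and TCACNCCA can overlap in their shared CCA. These shares are descriptions with no allowance for base composition, and a match is not a binding site.

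The 250 bases before the start are printed for the 3 members with the sterol element, followed by Idi1 and Cyp51, which rose with Norrin, and Tm7sf2, which did not pass, for comparison. Capitals mark TCACNCCA and CCAAT on either strand, so that ATTGG is CCAAT on the other strand. Hmgcs1 lies at chr13:119690101-119690350 on the plus strand, Msmo1 at chr8:64733579-64733828 on the minus strand and Srebf2 at chr15:82147019-82147268 on the plus strand. Idi1 lies at chr13:8885356-8885605 on the plus strand, Cyp51 at chr5:4104698-4104947 on the minus strand and Tm7sf2 at chr19:6067851-6068100 on the minus strand.
Hmgcs1: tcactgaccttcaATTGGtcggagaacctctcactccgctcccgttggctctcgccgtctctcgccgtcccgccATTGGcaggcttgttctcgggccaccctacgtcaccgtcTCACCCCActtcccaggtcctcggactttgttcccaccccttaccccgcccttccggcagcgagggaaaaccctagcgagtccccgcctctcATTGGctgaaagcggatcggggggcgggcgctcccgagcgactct
Msmo1: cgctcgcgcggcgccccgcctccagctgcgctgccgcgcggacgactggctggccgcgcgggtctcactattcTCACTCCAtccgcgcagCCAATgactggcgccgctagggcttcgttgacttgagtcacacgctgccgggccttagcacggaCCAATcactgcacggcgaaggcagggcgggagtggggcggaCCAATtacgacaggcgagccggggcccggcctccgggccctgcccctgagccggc
Srebf2: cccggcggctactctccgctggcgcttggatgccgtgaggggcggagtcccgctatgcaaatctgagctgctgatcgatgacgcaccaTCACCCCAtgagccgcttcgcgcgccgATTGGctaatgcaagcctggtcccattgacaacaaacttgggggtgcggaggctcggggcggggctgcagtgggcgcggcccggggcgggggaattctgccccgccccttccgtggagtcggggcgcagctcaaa
Idi1: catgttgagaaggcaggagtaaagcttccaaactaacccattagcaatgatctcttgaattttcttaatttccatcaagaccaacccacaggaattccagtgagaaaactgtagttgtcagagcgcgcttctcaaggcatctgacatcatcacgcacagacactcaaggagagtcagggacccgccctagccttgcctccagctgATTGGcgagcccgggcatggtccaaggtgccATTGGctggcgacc
Cyp51: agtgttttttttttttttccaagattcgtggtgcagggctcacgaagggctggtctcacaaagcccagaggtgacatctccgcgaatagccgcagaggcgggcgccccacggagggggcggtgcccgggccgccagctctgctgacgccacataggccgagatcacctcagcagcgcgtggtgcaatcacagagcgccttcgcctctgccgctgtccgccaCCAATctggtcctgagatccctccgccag
Tm7sf2: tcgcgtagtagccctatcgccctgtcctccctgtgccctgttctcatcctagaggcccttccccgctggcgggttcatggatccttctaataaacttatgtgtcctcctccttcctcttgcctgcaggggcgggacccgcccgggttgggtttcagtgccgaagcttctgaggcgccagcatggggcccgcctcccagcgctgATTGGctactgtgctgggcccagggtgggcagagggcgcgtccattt
Hmgcs1 and Msmo1 each had 3 CCAAT matches and 1 sterol element in the window, and both rose with Norrin in wild type cells. Srebf2, the other member with the sterol element, had 1 CCAAT match and did not pass. Idi1 and Cyp51 rose without a match to the sterol element. Tm7sf2 had 1 CCAAT match, as did Cyp51, yet the Norrin difference was 0.01 ± 0.11 for Tm7sf2 and 1.24 ± 0.13 for Cyp51 (SE, n = 3 arrays per group). Mvk had 5 CCAAT matches and did not pass. Whether these letters relate to the Norrin differences was not tested.

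Cholesterol synthesis genes rose in wild type cells grown with Norrin-expressing HEK293 cells. Of the 17 genes, 10 rose, none fell, and all 17 differences were above 0, with a median of 0.61. Sqle, Msmo1 and Idi1 rose the most, by 3.88, 3.28 and 2.49 times. The sterol carrier gene Stard4 and the desaturase gene Scd2 rose too, while none of the 3 LXR targets passed. In Fz4-/- cells the same exposure changed 0 of 17 sterol synthesis genes (limma, 2 of 17 at an unadjusted p under 0.05), with a median of 0.04, where 0.456% of all genes passed.

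Array values are given in the order of replicate numbers, and where 2 sets of them follow each other, control comes before Norrin, wild type before Fz4-/- and gelatin before Matrigel. A gene passed where limma's Benjamini-Hochberg adjusted p over all 18193 genes was below 0.05. By that rule 9.57% of all genes changed with Norrin in wild type (5.39% higher, 4.18% lower; median of all genes -0.02). Among the 34 members, 16 rose and 0 fell, with a median of 0.37. In Fz4-/- cells, against that 0.456%, 2 members rose, Insig1 and Scd2 (median 0.11). The interaction term, which takes the Norrin effect in Fz4-/- cells minus that in wild type, was past the threshold for 2.12% of genes (0.874% higher, 1.24% lower) and for 10 members, all 10 negative. By role these were 8 sterol synthesis genes, Stard4 and Scd2. Arrays with and without Norrin did not overlap for 20 of 34 members in wild type and 13 in Fz4-/- cells, against 21.4% and 19.5% of all genes. Each effect has its own control arrays, and genotype coincides with array set.

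**Figure D1:**
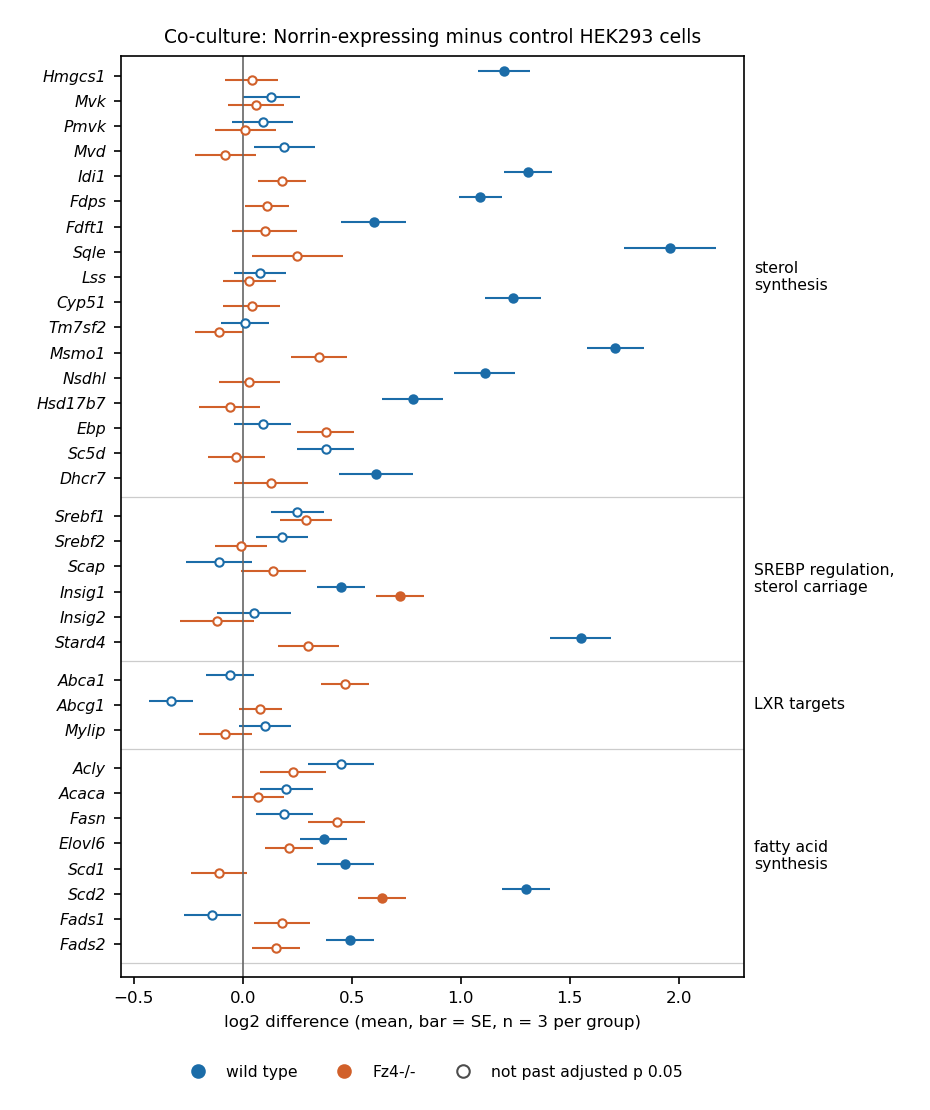
Log2 difference between co-cultures with Norrin-expressing and with control HEK293 cells for the 34 members, in wild type (blue) and Fz4-/- cells (orange); bars are limma's SE, n = 3 arrays per group, and filled points passed an adjusted p of 0.05. Of the sterol synthesis genes, 10 are filled in wild type and 0 in Fz4-/-, and the LXR targets have no filled point.

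Endothelial markers moved with the sterol genes in wild type. Of the 12, 10 rose with Norrin (median 0.90), among them Cdh5, the endothelial cadherin, by 1.06 ± 0.15 and Tek, the angiopoietin receptor, by 0.99 ± 0.12. Cldn5, a tight junction gene, at 0.13 ± 0.12, and Tie1, at 0.35 ± 0.14, did not pass. The summed linear intensity of the 12 was 2040 to 2727 with control cells and 4252 to 5439 with Norrin. Fz4-/- co-cultures summed to 3911 to 4307 and 4603 to 5088, and 0 of 12 passed there (median 0.27; limma, 6 at an unadjusted p under 0.05). Fibroblast markers summed to 441 to 521 with control cells and 397 to 585 with Norrin in wild type, and of 6, Col1a2 rose by 0.80 ± 0.14 and Dcn fell by 2.91 ± 0.22. Microglia and macrophage markers summed to 104 to 147 with control cells and 82 to 84 with Norrin in wild type, and 1 of 6 fell. Of 8 pericyte and smooth muscle markers 1 rose, and 0 glia or neuron markers passed. The part of these markers in the sterol result was not tested, and in mixed RNA more endothelial RNA and more transcript per cell cannot be told apart. Whether human transcripts of the HEK293 cells add to these probe sets, or differ between control and Norrin-expressing HEK293 cells, was not tested either. This holds for all co-culture results, including those in Fz4-/- cells.

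The early steps of the pathway split. Hmgcs1, HMG-CoA synthase, which makes the precursor of mevalonate, read 5.59, 5.31 and 5.54 in wild type cells with control HEK293 cells and 6.49, 6.80 and 6.75 with Norrin. All arrays with Norrin lay above all control arrays, and the difference was 1.20 ± 0.12 (SE, limma adjusted p = 3.47e-06). Its Fz4-/- arrays read 4.70, 4.83 and 5.10 with control cells and 4.94, 4.94 and 4.85 with Norrin, ranges that overlap. The Norrin effect in Fz4-/- cells was smaller than in wild type by -1.17 ± 0.18 (interaction, adjusted p = 0.000885). The 3 next enzymes, the kinases Mvk and Pmvk and the decarboxylase Mvd, did not pass. Their differences in wild type were 0.13 ± 0.13, 0.09 ± 0.14 and 0.19 ± 0.14, and their arrays overlapped between the groups.

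The isoprenoid steps that follow rose again. Idi1, the isomerase that forms the second isoprenoid building block, read 4.82, 4.71 and 4.82 with control cells and 5.97, 6.16 and 6.16 with Norrin in wild type. Those groups were far apart for their spread, with a difference of 1.31 ± 0.11 (adjusted p = 2.21e-07). Without Frizzled4, Idi1 read 3.89, 4.07 and 3.99, then 4.05, 4.28 and 4.14, overlapping ranges, and the interaction was -1.14 ± 0.15 (adjusted p = 0.000261). Fdps, farnesyl diphosphate synthase, stands where the route to sterols leaves that to other isoprenoids. It read 6.59, 6.68 and 6.75 with control cells and 7.65, 7.80 and 7.85 with Norrin in wild type. Every Norrin array was above every control array, by 1.09 ± 0.10 on average (adjusted p = 8.96e-07). Fz4-/- arrays of Fdps read 6.02, 6.07 and 5.97, then 6.12, 6.13 and 6.14, and the interaction was -0.99 ± 0.14 (adjusted p = 0.000578). The Fz4-/- ranges did not overlap, but they lay next to each other.

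Squalene is formed and oxidised next. Fdft1, squalene synthase, read 6.55, 6.10 and 6.28 with control cells and 6.62, 7.06 and 7.06 with Norrin in wild type and rose by 0.60 ± 0.15 (adjusted p = 0.0174). Its lowest Norrin array lay just above its highest control array, and its interaction of -0.50 ± 0.22 did not pass. Sqle, squalene epoxidase, the first oxygen-requiring step and a control point of the pathway, had the largest difference of the members. It read 4.31, 4.75 and 5.10 with control cells and 6.26, 7.10 and 6.67 with Norrin in wild type. All Norrin arrays lay above all control arrays despite a wide spread in both groups, and the difference was 1.96 ± 0.21 (adjusted p = 4.48e-06). Fz4-/- arrays read 4.07, 3.85 and 4.28, then 4.01, 4.41 and 4.52, which overlap, and the interaction was -1.71 ± 0.29 (adjusted p = 0.00283). Lss, which closes the sterol rings, differed by 0.08 ± 0.12 and did not pass.

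Lanosterol is trimmed to cholesterol by demethylases and reductases, and several of these genes rose. Cyp51, lanosterol demethylase, read 4.28, 4.53 and 4.68 with control cells and 5.60, 5.77 and 5.83 with Norrin in wild type. Its groups did not overlap and differed by 1.24 ± 0.13 (adjusted p = 2.92e-06). Fz4-/- arrays read 3.11, 3.36 and 3.30, then 3.13, 3.29 and 3.48, overlapping, and the interaction was -1.20 ± 0.18 (adjusted p = 0.000864). These Fz4-/- values of Cyp51 lay near the median of all probe sets on those arrays, 3.21 to 3.31. Cyp51 was thus dim there, which limits what could be detected. Msmo1, a methylsterol oxidase of the demethylation complex, read 4.88, 5.37 and 5.32 with control cells and 6.77, 7.01 and 6.92 with Norrin in wild type. The gap between those groups was wider than either group's range, and the difference was 1.71 ± 0.13 (adjusted p = 7.54e-08). Without Frizzled4, Msmo1 read 4.31, 4.16 and 4.11, then 4.54, 4.55 and 4.55, ranges that do not overlap, but the difference of 0.35 ± 0.13 did not pass (adjusted p = 0.384). Its interaction was -1.36 ± 0.18 (adjusted p = 0.000254).

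The other members of that complex behaved likewise in wild type. Nsdhl, the decarboxylating dehydrogenase, read 5.42, 5.61 and 5.44 with control cells and 6.26, 6.78 and 6.74 with Norrin and rose by 1.11 ± 0.14 (adjusted p = 3.61e-05). Its Fz4-/- arrays read 5.08, 5.21 and 4.99, then 5.31, 4.92 and 5.13, with overlap, and the interaction was -1.08 ± 0.20 (adjusted p = 0.00542). Hsd17b7, the ketone reductase of the same step, read 4.87, 4.63 and 5.22, then 5.52, 5.69 and 5.85 in wild type and rose by 0.78 ± 0.14 (adjusted p = 0.00149). Its Fz4-/- arrays read 4.57, 4.42 and 4.66, then 4.69, 4.33 and 4.46, with an interaction of -0.84 ± 0.20 (adjusted p = 0.0355). Both genes were highest on the wild type Norrin arrays among the 4 co-culture groups. Dhcr7, a reductase of the last steps, rose by 0.61 ± 0.17 in wild type (adjusted p = 0.0315), and its interaction of -0.48 ± 0.24 did not pass. In Fz4-/- co-cultures Dhcr7 was dim, at percentiles 29.8 and 33.5 of all genes with control and Norrin cells, which limits what could be detected. The reductase gene Tm7sf2, the isomerase gene Ebp and the desaturase gene Sc5d did not pass, at 0.01 ± 0.11, 0.09 ± 0.13 and 0.38 ± 0.13.

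**Figure D2:**
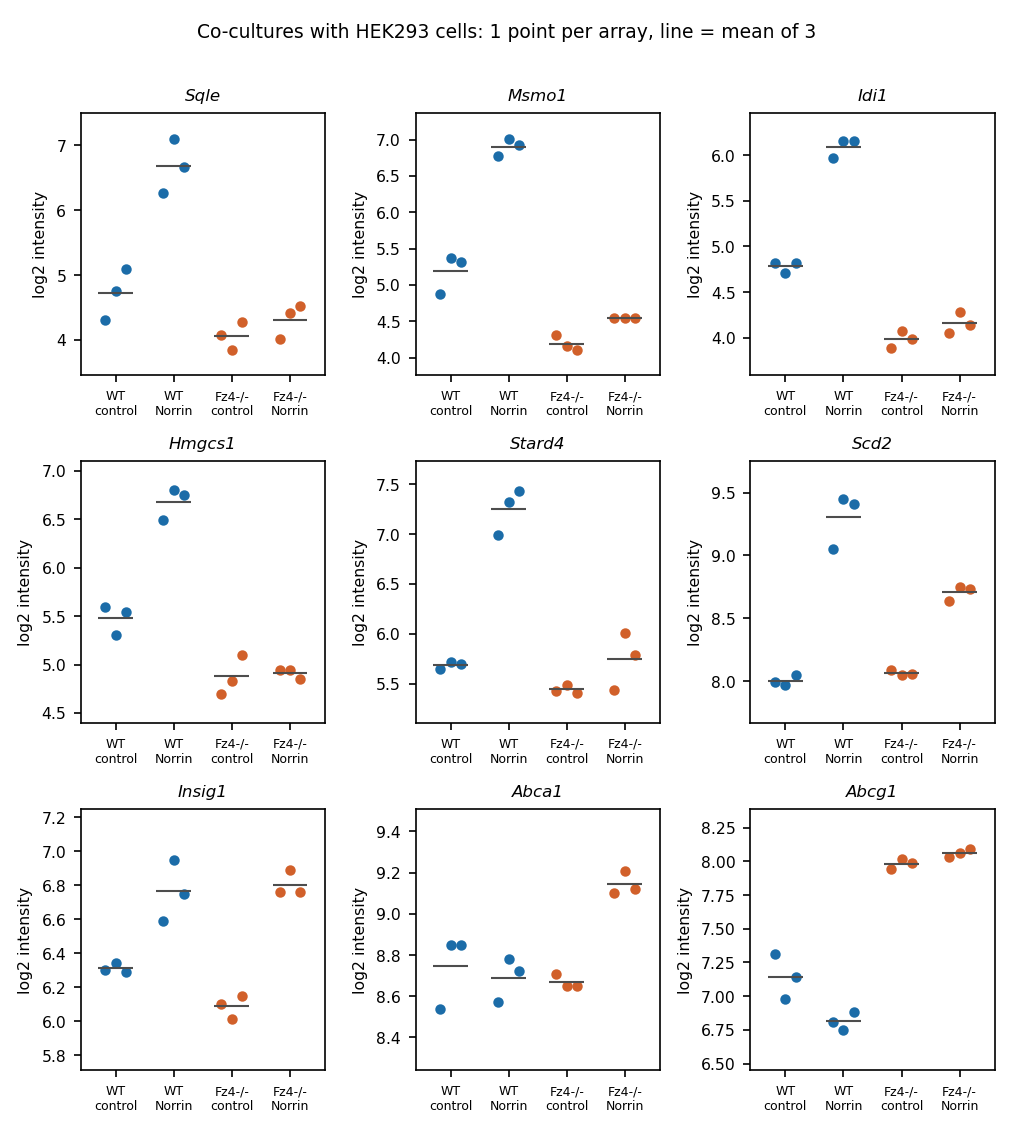
Log2 intensity of 9 members in the 4 co-culture groups, 1 point per array in the order of the replicate numbers, with the group mean as a line (blue wild type, orange Fz4-/-). Sqle, Msmo1, Idi1, Hmgcs1 and Stard4 are highest on the wild type Norrin arrays, Scd2 and Insig1 are higher with Norrin in both genotypes, and Abca1 and Abcg1 did not pass in either.

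Among the regulators, the SREBP genes themselves did not pass. Srebf2, whose protein drives sterol genes, read 6.79, 6.59 and 6.70 in wild type with control cells and 6.89, 6.87 and 6.88 with Norrin, a difference of 0.18 ± 0.12 (adjusted p = 0.453). Srebf1, whose products drive fatty acid genes, read 7.00, 7.10 and 7.15, then 7.09, 7.36 and 7.54, a difference of 0.25 ± 0.12 (adjusted p = 0.256). The Srebf2 groups were close without overlap and those of Srebf1 overlapped. Fz4-/- arrays of Srebf1 read 7.28, 7.24 and 7.44, then 7.47, 7.72 and 7.65, and Srebf2 5.98, 6.03 and 5.76, then 6.15, 5.69 and 5.90. The Srebf1 groups lay apart there and those of Srebf2 did not, but neither gene passed, at 0.29 ± 0.12 and -0.01 ± 0.12. Scap, the SREBP escort, and Insig2 differed by -0.11 ± 0.15 and 0.05 ± 0.17 in wild type and did not pass.

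Insig1 and Stard4 parted from each other in Fz4-/- cells. Insig1, the retention factor that is itself an SREBP target, read 6.30, 6.34 and 6.29 in wild type with control cells and 6.59, 6.95 and 6.75 with Norrin and rose by 0.45 ± 0.11 (adjusted p = 0.0105). Without Frizzled4 it read 6.10, 6.01 and 6.15, then 6.76, 6.89 and 6.76 and rose by 0.72 ± 0.11 (adjusted p = 0.00253). The groups did not overlap in either genotype, and the interaction of 0.26 ± 0.15 did not pass (95% interval -0.09 to 0.61). Stard4, a soluble protein that moves cholesterol between membranes, read 5.65, 5.72 and 5.70 in wild type with control cells and 6.99, 7.32 and 7.43 with Norrin. It rose by 1.55 ± 0.14 (adjusted p = 6.96e-07), and its 3 control arrays lay close together. Fz4-/- arrays read 5.43, 5.49 and 5.41, then 5.44, 6.01 and 5.79, which overlap, and the interaction was -1.25 ± 0.19 (adjusted p = 0.00119).

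None of the 3 LXR targets passed in either genotype (limma; at an unadjusted p under 0.05, 1 in wild type and 1 in Fz4-/-). Abca1, the transporter that loads cholesterol onto apolipoproteins, read 8.54, 8.85 and 8.85 in wild type with control cells and 8.57, 8.78 and 8.72 with Norrin, which overlap (-0.06 ± 0.11). Its Fz4-/- arrays read 8.71, 8.65 and 8.65, then 9.10, 9.21 and 9.12, which do not overlap, but 0.47 ± 0.11 missed the threshold (adjusted p = 0.0758). Abcg1, the transporter that exports cholesterol to lipoprotein particles, read 7.31, 6.98 and 7.14, then 6.81, 6.75 and 6.88 in wild type. Its Norrin arrays were the lower ones, at -0.33 ± 0.10 (adjusted p = 0.0576). Fz4-/- arrays of Abcg1 read 7.94, 8.02 and 7.99, then 8.03, 8.06 and 8.09, nearly level. Mylip, a ubiquitin ligase that removes lipoprotein receptors, differed by 0.10 ± 0.12 and -0.08 ± 0.12 in wild type and Fz4-/- cells.

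Of the 8 fatty acid genes, 4 rose in wild type with Norrin and 0 fell, and those that rose desaturate or lengthen fatty acids. Scd2, a stearoyl-CoA desaturase, which makes monounsaturated fatty acids, read 7.99, 7.97 and 8.05 with control cells and 9.05, 9.45 and 9.41 with Norrin and rose by 1.30 ± 0.11 (adjusted p = 4.79e-07). Without Frizzled4 it read 8.09, 8.05 and 8.06, then 8.64, 8.75 and 8.73 and rose by 0.64 ± 0.11 (adjusted p = 0.0106). Its control arrays were tight and below all Norrin arrays in both genotypes, and the rise was smaller in Fz4-/- cells (interaction -0.66 ± 0.16, adjusted p = 0.0323). Scd1, its paralogue, read 5.94, 6.37 and 6.35 with control cells and 6.56, 6.78 and 6.72 with Norrin in wild type and rose by 0.47 ± 0.13 (adjusted p = 0.0259). Fz4-/- arrays of Scd1 read 3.88, 3.98 and 3.85, then 3.85, 3.60 and 3.94, a mixed order, and the interaction of -0.58 ± 0.18 did not pass. Fads2, the first desaturase of the polyunsaturated series, rose by 0.49 ± 0.11 in wild type. Elovl6, which elongates palmitate, rose by 0.37 ± 0.11, an adjusted p of 0.0498 that lies at the threshold. It was dim, at percentiles 34.9 and 41.8 of all genes with control and Norrin cells in wild type. Acly, Acaca and Fasn, which make acetyl-CoA, malonyl-CoA and palmitate, did not pass, at 0.45 ± 0.15, 0.20 ± 0.12 and 0.19 ± 0.13. Fads1 differed by -0.14 ± 0.13. Fz4-/- arrays of Fasn read 6.79, 6.82 and 6.78, then 7.09, 7.28 and 7.32, without overlap, and its 0.43 ± 0.13 did not pass.

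Other probe sets of the same genes mostly gave the same sign. The members that rose in wild type had 24 further probe sets, and 19 were positive. Hmgcs1 had further values of 1.22, 1.26, 1.00 and 0.06, Stard4 1.44 and 1.24, and Scd2 1.54 and 1.79. Dim sets gave smaller values: the second set of Msmo1, with a mean of 3.23, differed by -0.08, and that of Fdps, with a mean of 2.30, by -0.04. Hsd17b7 had values of 0.16, 0.01 and -0.04 in its other sets, so its rise rests on 1 of 4 probe sets, whose suffix marks possible cross-hybridization. Scd1 gave -0.17 in its second set. Insig1, Nsdhl, Sqle and Dhcr7 had a single probe set.

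Without replicate 1 of every group, 10 of 17 sterol synthesis genes rose with Norrin in wild type (median 0.85), against 7.09% of all genes, and 7 had a smaller effect in Fz4-/- cells, where the interaction was past the threshold and negative for 1.5% of all genes. With replicates 2 and 3 averaged into 1 sample, 8 rose, 5 had a smaller effect in Fz4-/- cells, and Scd2 was the 1 fatty acid gene of 8 that rose. Dhcr7, Fdft1, Elovl6 and Scd1 lost their call when single arrays were left out, and Insig1 lost it without wild type Norrin replicate 2 (0.36 ± 0.11). The interactions of Hsd17b7 and Scd2 lost theirs in most such fits. With only the arrays compared, 10 members rose with Norrin in wild type, and with all 24 arrays in 1 fit the interactions of Cyp51, Fdps, Idi1 and Scd2 did not pass. The call of Scd2 in Fz4-/- cells was lost without Fz4-/- control replicate 2 or 3 or Norrin replicate 2 or 3 (0.61 to 0.63).

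Of the sterol genes, 1 of 17 differed by genotype in cells without HEK293 cells, while Scd1 and Acaca were lower in Fz4-/- than in wild type cells on both surfaces. On gelatin 3 members were lower and 0 higher, namely Scd1, Acaca and Mvd, with a median of -0.17 over the 34. On Matrigel 5 were lower and 0 higher, namely Scd1, Acaca, Scd2, Fasn and Mvd, with a median of -0.30. The background was 14.9% of all genes on gelatin (7.21% higher, 7.73% lower, median 0) and 15.7% on Matrigel (6.91% higher, 8.77% lower, median 0.02). The members past the threshold made up 8.82% and 14.7%, below the background on both surfaces. Centring each array on its median moved the median of sterol genes from -0.18 to -0.09 on gelatin and from -0.31 to -0.18 on Matrigel, where 1 member was then higher and 3 lower, against 13.6% and 6.22% of all genes.

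Scd1 had the largest genotype difference of the members. On gelatin it read 7.09, 6.82 and 6.85 in wild type and 3.89, 4.75 and 4.66 without Frizzled4, a difference of -2.49 ± 0.19 (SE, limma adjusted p = 5.14e-06). On Matrigel it read 7.12, 6.92 and 6.92, then 4.53, 4.74 and 4.70, a difference of -2.33 ± 0.19 (adjusted p = 8.63e-06). The wild type arrays lay above the Fz4-/- arrays by far more than either group's range, and the second probe set gave -1.60 and -1.64. In Fz4-/- cells Scd1 was dim, at percentiles 33.3 and 35.8 of all genes on gelatin and Matrigel. That limits how well the size of its difference is known. Acaca, acetyl-CoA carboxylase, which commits acetyl-CoA to fatty acids, read 8.53, 8.49 and 8.42, then 8.12, 8.07 and 8.04 on gelatin (-0.40 ± 0.07, adjusted p = 0.00362). On Matrigel it read 8.21, 8.05 and 8.06, then 7.49, 7.55 and 7.46 (-0.61 ± 0.07, adjusted p = 0.000218). Its groups were tight and apart in both conditions.

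Scd2 and Fasn passed on Matrigel alone, and the difference between conditions did not pass for either. Scd2 read 10.56, 10.48 and 10.57 in wild type and 9.45, 9.40 and 9.37 in Fz4-/- cells on Matrigel, a difference of -1.13 ± 0.28 (adjusted p = 0.0185). On gelatin it read 10.61, 9.60 and 9.56, then 8.60, 9.55 and 9.55, where replicate 1 stood apart in both groups (-0.69 ± 0.28, adjusted p = 0.139). Fasn, fatty acid synthase, read 9.66, 9.76 and 9.72, then 9.38, 9.23 and 9.47 on Matrigel (-0.36 ± 0.10, adjusted p = 0.0309) and 10.49, 10.20 and 10.33, then 10.03, 10.22 and 10.26 on gelatin. Mvd, mevalonate diphosphate decarboxylase, read 7.13, 7.01 and 7.02, then 6.54, 6.70 and 6.79 on gelatin (-0.38 ± 0.09, adjusted p = 0.0191). Its call was lost with median-centred arrays (-0.29) and without wild type gelatin replicate 1 (-0.34) or Fz4-/- gelatin replicate 1 (-0.31). Insig2 was next in order on gelatin, at 8.57, 8.30 and 8.28, then 8.72, 8.68 and 8.57, and touched between genotypes (0.27 ± 0.10, adjusted p = 0.101). Fasn and Mvd lost their calls on Matrigel with median-centred arrays (-0.23 and -0.18). Without wild type Matrigel replicate 2 or 3, 2 members passed, Scd1 and Acaca, and without Fz4-/- Matrigel replicate 2 or 3, 3 passed.

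**Figure D3:**
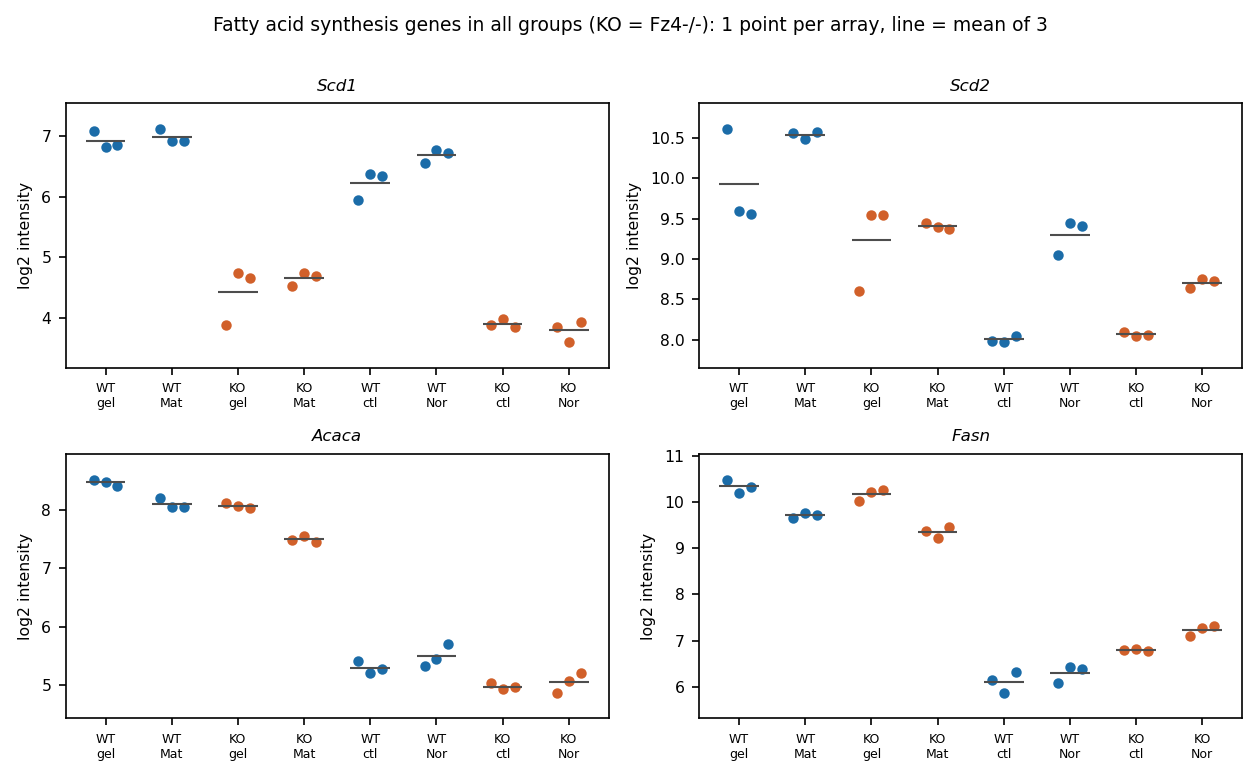
Log2 intensity of Scd1, Scd2, Acaca and Fasn on all 24 arrays, 1 point per array in the order of the replicate numbers with the group mean as a line; WT is wild type, KO is Fz4-/-, gel is gelatin, Mat is Matrigel, and ctl and Nor are co-cultures with control and Norrin-expressing HEK293 cells. Scd1 is lower in KO than in WT in all 4 conditions, and co-culture levels cannot be set against those of cells alone because the array sets differ.

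The sterol genes of cells alone split by replicate number in opposite directions in the 2 genotypes. On gelatin the mean over the 17 genes was 8.47, 8.02 and 8.03 in wild type and 7.54, 8.24 and 8.23 without Frizzled4. Replicate 1 was thus the highest array in wild type and the lowest in Fz4-/-, while replicates 2 and 3 were alike in each. Between arrays of number 1, 0 of 17 genes were higher in Fz4-/- cells, with a median of -0.77. At number 2, 14 were higher (median 0.11), and at number 3, 10 (median 0.08). Of all 18193 genes, 9334, 9212 and 8461 were higher at numbers 1, 2 and 3 (medians 0.01, 0 and -0.02). Idi1 read 9.22, 8.29 and 8.14 in wild type and 6.93, 8.97 and 8.97 in Fz4-/- cells, and Cyp51 8.47, 7.37 and 7.27, then 6.30, 8.03 and 8.03. Each had its most extreme arrays at number 1, in opposite directions. On Matrigel the mean over the 17 genes was 8.03, 7.82 and 7.74 in wild type and 7.49, 7.58 and 7.64 without Frizzled4. There the genotype difference kept its direction: 0, 3 and 4 of 17 genes were higher in Fz4-/- cells at numbers 1, 2 and 3. The medians were -0.42, -0.22 and -0.19, and 9410, 9600 and 9452 of all 18193 genes were higher.

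Replicate 1 was the highest array in wild type and the lowest in Fz4-/- cells for 15 of 17 sterol synthesis genes, 7 of 8 fatty acid genes and 3 of 6 regulators, which were Insig1, Srebf2 and Stard4. The opposite order held for 2 of 3 LXR targets, Abca1 and Mylip. The share of all genes with either order was not counted. Replicate 1 stood apart on gelatin over all genes too. Differences from it had an SD of 0.327 to 0.347, and those between replicates 2 and 3 of 0.147 and 0.18. On gelatin Insig1 read 8.53, 7.92 and 7.79 in wild type and 6.85, 8.20 and 8.16 without Frizzled4, and Srebf2 read 8.18, 7.72 and 7.67, then 7.56, 8.41 and 8.37. In Srebf1 replicate 1 was the highest array of both genotypes, at 10.21, 9.75 and 9.82, then 9.80, 9.62 and 9.67, as in Insig2, while in Scap it was the lowest of both, at 9.97, 10.02 and 10.12, then 9.81, 9.96 and 9.96. Abca1 was at 8.86, 10.13 and 10.06 in wild type and 9.63, 8.94 and 9.03 in Fz4-/- cells. The mean of the 3 LXR targets was 8.32, 8.88 and 8.88 in wild type and 9.03, 8.46 and 8.49 in Fz4-/- cells. That mean was thus low on the wild type array where the sterol mean was high, and high on the Fz4-/- array where it was low. Abcg1 had replicate 1 highest in both genotypes, at 9.79, 9.65 and 9.73 in wild type and 10.34, 9.60 and 9.56 in Fz4-/- cells. What set replicate 1 apart was not tested, and the labels give nothing by which it differs.

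**Figure D4:**
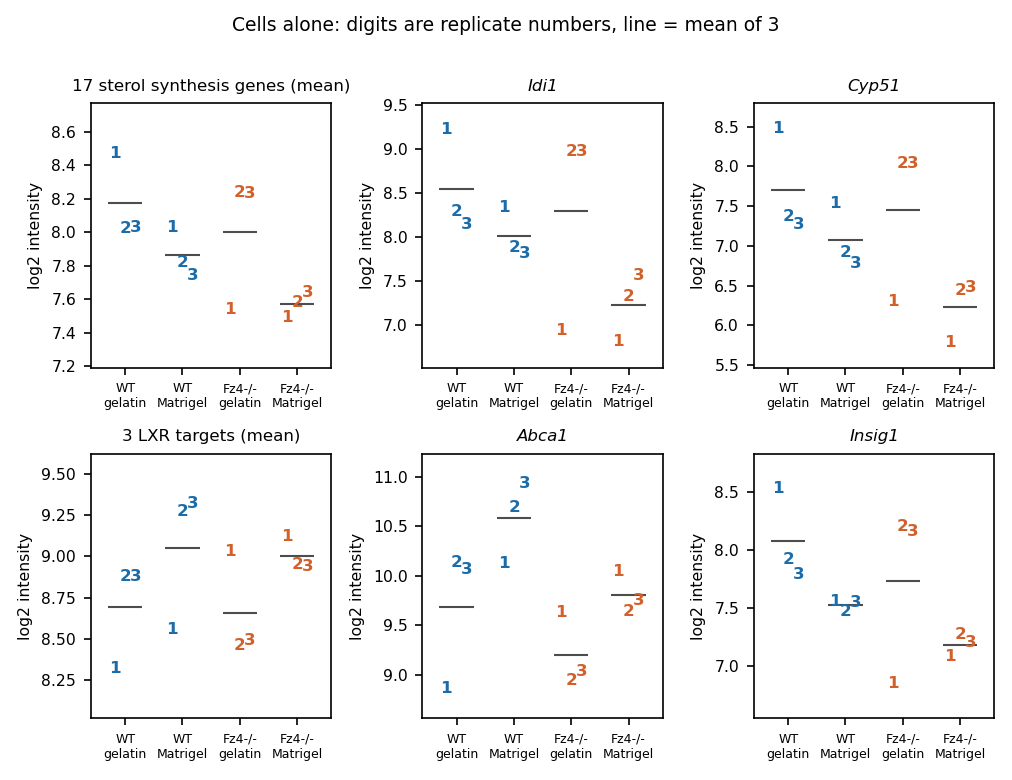
Log2 intensity in cells alone of the mean of the 17 sterol synthesis genes, of Idi1, Cyp51 and Insig1, and of Abca1 and the mean of the 3 LXR targets, with each array drawn as its replicate number and the group mean as a line (blue wild type, orange Fz4-/-). On gelatin number 1 is the highest sterol array in wild type and the lowest in Fz4-/-, with the opposite order for the mean of the LXR targets.

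Leaving out replicate 1 of every group changed the genotype result on gelatin. This left 14 members higher and 4 lower in Fz4-/- cells, against 0 and 3 with all arrays. Over all genes 13.4% were then higher and 13.6% lower, 27% in either direction, against 14.9% with all arrays. Among sterol synthesis genes 6 were higher and 1 lower (median 0.10), with Sqle at 0.99 ± 0.10 and Idi1 at 0.76 ± 0.09 (SE). Abca1 was at -1.11 ± 0.09, Srebf2 at 0.70 ± 0.08 and Scd1 at -2.13 ± 0.06. These fits rest on 2 close arrays per group. With replicates 2 and 3 averaged into 1 sample, 1 member passed, Scd1. The direction of the sterol genes between the genotypes on gelatin therefore depends on replicate 1, and that of Scd1 does not.

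Fasn, Acaca and a few sterol synthesis genes were lower on Matrigel than on gelatin. In wild type 4 members fell and 0 rose, with a median of -0.19, against 18.4% of all genes (6.71% higher, 11.7% lower, median -0.05). For Fz4-/- cells 5 fell and 0 rose, with a median of -0.31, against 19.7% of all genes (7.91% higher, 11.8% lower, median -0.05). The count of members past the threshold was thus no larger than the background, while 14 of 17 sterol differences in wild type and 15 of 17 in Fz4-/- cells were below 0, with medians of -0.39 and -0.42. The contrast covers matrix, replating and low serum together.

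Fasn and Acaca fell in both genotypes. Fasn read 10.49, 10.20 and 10.33 on gelatin and 9.66, 9.76 and 9.72 on Matrigel in wild type, a difference of -0.63 ± 0.10 (SE, limma adjusted p = 0.00176), and 10.03, 10.22 and 10.26, then 9.38, 9.23 and 9.47 in Fz4-/- cells, a difference of -0.81 ± 0.10 (adjusted p = 0.000379). Acaca fell by 0.37 ± 0.07 in wild type (adjusted p = 0.00613) and by 0.57 ± 0.07 in Fz4-/- cells (adjusted p = 0.000519). All gelatin arrays lay above all Matrigel arrays for both genes, but with the mean of its probe sets Acaca was at -0.21 and -0.20 and did not pass.

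Of the 17 sterol genes, 2 (wild type) and 3 (Fz4-/-) fell. Sc5d, the lathosterol desaturase, read 9.18, 8.83 and 8.78 on gelatin and 8.47, 8.35 and 8.37 on Matrigel in wild type, and fell by 0.53 ± 0.13 (adjusted p = 0.0163). It read 8.51, 8.94 and 8.86, then 8.23, 8.43 and 8.35 in Fz4-/- cells and fell by 0.43 ± 0.13 (adjusted p = 0.039), with no overlap in either. Hmgcs1 read 9.48, 9.15 and 9.01, then 8.82, 8.41 and 8.50 in wild type (-0.64 ± 0.20, adjusted p = 0.048), and 8.61, 9.36 and 9.43, then 8.73, 8.57 and 8.69 in Fz4-/- cells, where it overlapped. With the replicate number as a block, Hmgcs1 in wild type no longer passed (adjusted p = 0.0518). Hsd17b7 read 7.89, 8.41 and 8.43, then 7.69, 7.54 and 7.58 in Fz4-/- cells (-0.64 ± 0.14, adjusted p = 0.00839). Msmo1 read 8.35, 9.50 and 9.55, then 7.99, 8.08 and 8.26 there (-1.02 ± 0.27, adjusted p = 0.0217). In both the 3 Matrigel arrays were the lower ones. Idi1 and Cyp51 had larger differences in Fz4-/- cells, -1.06 ± 0.48 and -1.22 ± 0.45, and did not pass. Their gelatin replicate 1, at 6.93 for Idi1 and 6.30 for Cyp51, lay within the range of the Matrigel arrays, 6.81, 7.32 and 7.56 and 5.79, 6.44 and 6.48.

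**Figure D5:**
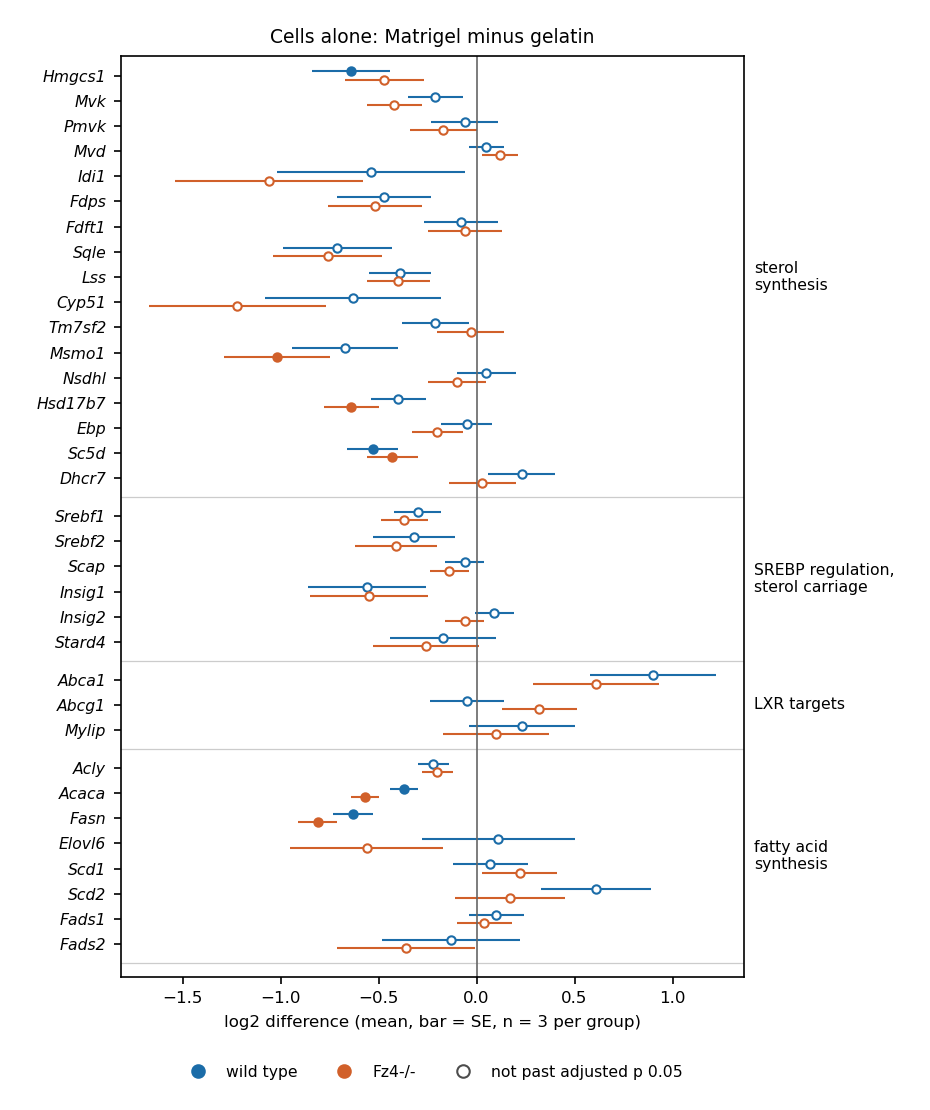
Log2 difference between Matrigel and gelatin cultures for the 34 members in wild type (blue) and Fz4-/- cells (orange); bars are limma's SE, n = 3 arrays per group, and filled points passed an adjusted p of 0.05. Fasn and Acaca are filled in both genotypes, and Idi1 and Cyp51 have the widest bars.

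Regulators and LXR targets did not pass on Matrigel in either genotype (limma; among the 6 regulators 1 in each genotype, and among the 3 LXR targets 1 in wild type and 0 in Fz4-/-, at an unadjusted p under 0.05). Abca1 read 10.12, 10.69 and 10.93 on Matrigel in wild type, against its gelatin values, a difference of 0.90 ± 0.32 (adjusted p = 0.0749). Its replicate 1 on Matrigel lay within the gelatin range. Insig1 differed by -0.56 ± 0.30 in wild type and -0.55 ± 0.30 in Fz4-/- cells. Srebf1 differed by -0.30 ± 0.12 and -0.37 ± 0.12, and with the replicate number as a block it passed in both (adjusted p = 0.0181 and 0.00697). Scd2 differed by 0.61 ± 0.28 in wild type, Scd1 by 0.07 ± 0.19. Without replicate 1 of every group, 8 sterol synthesis genes were lower and 1 higher on Matrigel in wild type, and 11 lower and 0 higher in Fz4-/- cells. Of all genes 17.3% were then lower and 10.6% higher in wild type (28% in all), and 18.7% and 11.5% in Fz4-/- cells (30.2%). Leaving out Fz4-/- gelatin replicate 1 alone gave 10 lower and 0 higher (median -0.56), and 16 of the 34 members passed, against 16.7% of all genes (9.72% lower, 6.98% higher). Of the 34, 3 passed without Fz4-/- gelatin replicate 2 or 3 or Matrigel replicate 2, and in wild type 2 passed without Matrigel replicate 2 or 3.

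The Matrigel effect was not shown to differ between the genotypes for any of the 34 members (limma interaction; 0 also at an unadjusted p under 0.05; background 0.0165%, with 0.0055% higher and 0.011% lower). Acaca came first, at -0.20 ± 0.11, then Abcg1 at 0.37 ± 0.27, Fasn at -0.18 ± 0.14 and Elovl6 at -0.68 ± 0.56, each with an adjusted p of 1. Elovl6 read 7.56, 5.96 and 5.91 on gelatin and 7.30, 6.25 and 6.23 on Matrigel in wild type, and 6.64, 6.73 and 6.79, then 6.39, 6.12 and 5.96 in Fz4-/- cells. Its wild type replicate 1 was the highest array in both conditions. Without replicate 1 of every group, 5 members passed, against 0.335% of all genes.

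In co-culture most sterol genes read lower in Fz4-/- than in wild type arrays, a contrast in which genotype and array set cannot be told apart. With control HEK293 cells 22 members were lower and 3 higher (median -0.44), against 38.8% and 12.1% of all genes (50.9% in either direction, median -0.20). With Norrin-expressing cells 25 were lower and 4 higher (median -0.88), against 38.4% and 11.5% (49.9%, median -0.20). Centring each array on its median, which removes that shift of all genes, left 13 lower and 4 higher with control cells and 22 lower and 7 higher with Norrin, and quantile normalization left 15 and 4, and 22 and 7. Of all genes, centring left 20.7% lower and 19.8% higher with control cells and 19.1% and 20.1% with Norrin, and quantile normalization 21.8% and 21.3%, and 20.2% and 21%. Sterol synthesis genes made up 15 and 16 of the lower members, with medians of -0.65 and -1.20, and 10 and 15 after centring, with medians of -0.46 and -0.99. Of 12 endothelial markers, 9 were higher and 1 lower with control cells (median 0.84), and 6 higher and 4 lower with Norrin (median 0.24). Of 6 fibroblast markers 4 and 5 were lower (medians -0.66 and -0.88), and of 8 pericyte and smooth muscle markers 4 and 5 (medians -0.33 and -0.31). Of 6 glia markers 3 and 3 were lower, and of 5 neuron markers 2 and 2. Of 6 microglia and macrophage markers 1 was higher and 1 lower with either HEK293 line. Their sum was 104 to 147 in wild type and 223 to 244 in Fz4-/- arrays with control cells. With Norrin it was 82 to 84 and 184 to 207. The part of these markers in the difference of the sterol genes was not tested.

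Scd1 was again the member with the largest difference, at -2.31 ± 0.13 with control cells and -2.89 ± 0.13 with Norrin (limma adjusted p = 1.56e-10 and 5.56e-12), from the array values given above. Fads2 read 5.79, 5.76 and 5.51 in wild type and 4.21, 4.21 and 4.15 in Fz4-/- cells with control HEK293 cells (-1.50 ± 0.11, adjusted p = 5.46e-09). Tm7sf2 read 4.79, 4.57 and 4.73, then 3.72, 3.96 and 3.68 there (-0.91 ± 0.11, adjusted p = 3.64e-06). Both genes had tight groups that did not overlap. Cyp51 differed by -1.24 ± 0.13 with control cells and -2.43 ± 0.13 with Norrin, Msmo1 by -0.99 ± 0.13 and -2.35 ± 0.13, and Idi1 by -0.80 ± 0.11 and -1.94 ± 0.11. Srebf2 was lower, at -0.78 ± 0.12 and -0.97 ± 0.12. Higher in Fz4-/- arrays were Abcg1, at 0.84 ± 0.10 and 1.25 ± 0.10, Fasn, at 0.69 ± 0.13 and 0.93 ± 0.13, and Acly, at 0.87 ± 0.15 and 0.65 ± 0.15. Abca1 passed with Norrin-expressing cells, at 0.45 ± 0.11. Fasn ran opposite to its lower Fz4-/- level on Matrigel.

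Related genes outside the 34 members were read in 4 further lists. Together they held 65 measured genes, of which 9 rose (13.8%) and 6 fell (9.23%) with Norrin in wild type, against 5.39% and 4.18% of all genes. Of 19 other genes of sterol handling, 3 rose and 1 fell. Mbtps1, the protease that first cuts SREBPs, rose by 0.68 ± 0.12, and Lbr, a lamin receptor with sterol reductase activity, by 0.55 ± 0.12. Npc2, which carries cholesterol out of lysosomes, fell by 0.45 ± 0.10. Of 21 other genes of fatty acid and lipid synthesis, 3 rose and 1 fell, among them Aacs, which feeds ketone bodies into sterol synthesis, by 0.75 ± 0.16, Acsl3, an acyl-CoA synthetase, by 0.45 ± 0.11, and Gpam at -0.34 ± 0.10. Of 12 other LXR and oxysterol genes, 2 rose and 2 fell. Smpdl3a, a lipid-related phosphodiesterase, rose by 0.85 ± 0.16 and Lpcat3, which places polyunsaturated chains in phospholipids, by 0.81 ± 0.15. Cyp7b1, an oxysterol hydroxylase, was at -0.56 ± 0.16 and Rxrb at -0.55 ± 0.11. Of 13 fatty acid oxidation genes 1 rose and 2 fell, with Acadm at 0.34 ± 0.10, Angptl4 at -0.53 ± 0.14 and Acadvl at -0.41 ± 0.12. For Fz4-/- cells 0 genes of these 4 lists passed (limma; 3, 2, 0 and 1 at an unadjusted p under 0.05), against 0.456% of all genes. The interaction passed for 1 gene of these lists (1.54%, against 2.12% of all genes), Smpdl3a, at -0.99 ± 0.23.

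In cells alone these 4 lists changed about as often as all genes or less. By genotype 10 of 65 passed on gelatin (15.4%, against 14.9%) and 9 on Matrigel (13.8%, against 15.7%), and by Matrigel 10 in each genotype (15.4%, against 18.4% in wild type and 19.7% in Fz4-/- cells). Fz4-/- cells on gelatin were lower in Plin2, which coats lipid droplets (-1.82 ± 0.20), in Pltp, a phospholipid transfer protein (-1.51 ± 0.37), in Cyp27a1, a sterol hydroxylase (-1.16 ± 0.21), in Decr1 (-0.42 ± 0.08), in the carboxylase Acacb (-0.30 ± 0.09) and in the lipoprotein receptor gene Lrp8 (-0.53 ± 0.13). They were higher in Fabp5, a fatty acid carrier (1.19 ± 0.20), in Rxra, the partner of LXR (0.99 ± 0.14), and in Acadm (0.53 ± 0.16). On Matrigel the genotypes differed by -1.31 ± 0.20 for Plin2, -1.70 ± 0.37 for Pltp, -1.44 ± 0.17 for Cyp7b1, -0.46 ± 0.08 for Decr1, 1.14 ± 0.20 for Fabp5, 0.88 ± 0.14 for Rxra, -0.80 ± 0.17 for Acss2 and -0.57 ± 0.09 for Acacb. Pdk4 and Cpt1a, which favour fatty acid oxidation, were higher on Matrigel than on gelatin, a contrast that also covers replating and low serum. The differences were 1.02 ± 0.27 and 0.88 ± 0.24 in wild type and 1.27 ± 0.27 and 1.01 ± 0.24 in Fz4-/- cells. Cyp7b1 rose by 1.44 ± 0.17 and 0.73 ± 0.17 and the cholesterol ester hydrolase Nceh1 by 0.65 ± 0.16 and 0.55 ± 0.16. Aacs fell by 0.67 ± 0.14 and 0.66 ± 0.14, and Angptl4 fell in wild type by 1.70 ± 0.45. Further genes past the threshold were Dgat2, which completes triglycerides, at -0.38 ± 0.08 and -0.38 ± 0.08, Lpl at -0.49 ± 0.10 and Tmem97 at -0.57 ± 0.17 in wild type, and Hsd17b12 at -0.57 ± 0.14, Thrsp at 0.43 ± 0.10 and Pgrmc1 at -0.39 ± 0.12 in Fz4-/- cells.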

How the data were processed

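The deposited values are in log2 intensity, with 1 per probe set and array, made by the authors with RMA according to the submitters' processing notes. Neither its version nor the grouping of arrays is given in the sources used here. Of 45101 probe sets, 34945 with 1 gene symbol in the platform annotation gave 18193 genes, each represented by the brightest of its sets on average. The platform names a possible cross-hybridization by a suffix of the probe set, but not every suffix means that. The alternative without suffixes dropped sets with any of them. Group means were fitted with limma 3.58.1 (R 4.3.3; data.table, version 1.17.8), apart for the 12 arrays of cells alone and the 12 co-cultures, with 8 residual degrees of freedom each, and p-values were adjusted by Benjamini-Hochberg over all genes. The procedure was tested on simulated data. Errors are SE with n = 3 arrays unless SD is named, and 3 against 3 arrays allow an exact permutation p of 0.1 at best. Whether replicates were separate cultures is not in the labels, and p-values then measure only the spread between these arrays, which may be technical. The members, gene lists and tests were chosen with earlier results of these data known.

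Members named are those past the threshold in the Norrin interaction, the 8 with the smallest adjusted p for Norrin in wild type, 4 in each other comparison, and Insig1, Srebf1, Srebf2, Abca1, Abcg1, Scd1 and Scd2; genes of the other lists are the 2 largest changes per direction. Alternatives were quantile normalization, centring on the median, averaging all sets of a gene, sets without suffixes, genes above the median level, only the arrays compared, all 24 arrays in 1 fit, a trended robust variance, a block for the replicate number, and fits without 1 array. Those without replicate 1 and with replicates 2 and 3 averaged were chosen after seeing the data. Equal replicate numbers, which the sample titles give, deviated together over genes at correlations of 0.24 to 0.72 in cells alone, 0.10 to 0.36 for Norrin in wild type, 0.14 to 0.37 for genotype with Norrin, but -0.19 to 0.01 for Norrin in Fz4-/- and -0.05 to 0.07 for genotype with control cells. The equal number was the best match in 4 and 5 of 6 checks for genotype on gelatin and Matrigel. It was so in 2 and 3 for Matrigel in wild type and Fz4-/-, and in 4 and 0 for Norrin. For genotype with control and Norrin cells it was so in 2 and 6. Promoters are RefSeq's on GRCm38.p6. Plots were drawn with matplotlib 3.10.9 (numpy 2.4.6, pandas 2.3.3, Python 3.11.15).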

Additional observations from a re-analysis of the deposited data

Results flagged for a closer look

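For 10 members the Norrin effect in Fz4-/- cells differed from that in wild type by limma's interaction term. The largest gap was that of Sqle, at -1.71 ± 0.29 (SE, n = 3 arrays per group, adjusted p = 0.00283). Msmo1 followed at -1.36 ± 0.18, Stard4 at -1.25 ± 0.19, Cyp51 at -1.20 ± 0.18, Hmgcs1 at -1.17 ± 0.18 and Idi1 at -1.14 ± 0.15. Nsdhl was at -1.08 ± 0.20 and Fdps at -0.99 ± 0.14. The smallest were Hsd17b7 at -0.84 ± 0.20 and Scd2 at -0.66 ± 0.16. Adjusted p ranged from 0.000254 for Msmo1 to 0.0355 for Hsd17b7. Endothelial markers had the same sign, with 6 of 12 past the threshold (median -0.65), and their part in these differences was not tested.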

How the results depend on the processing

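Results are counts of the 34 members past the threshold, and the cause of each change was not tested unless stated. Without replicate 1 of every group, which leaves 2 close arrays per group, the count was 18 for genotype on gelatin, 18 for genotype on Matrigel, 19 and 23 for Matrigel in wild type and Fz4-/- (all genes: 27%, 26.7%, 28% and 30.2%), and 5 for the Matrigel interaction. On gelatin this reversed Cyp51 (0.71), Idi1 (0.76), Msmo1 (0.52), Fads2 (0.52), Stard4 (0.39), Fdps (0.33), Hmgcs1 (0.32), Insig1 (0.32) and Fads1 (0.22). With replicates 2 and 3 averaged, which leaves fewer samples, the counts in that order were 1, 2, 1 and 2, and 10 for Norrin in wild type, 0 in Fz4-/- and 5 for its interaction. Median centring gave 7 for Matrigel in wild type, and averaging the sets of each gene 2 there and 1 for Norrin in Fz4-/-. Norrin in wild type gave 10 with only the arrays compared, which have fewer degrees of freedom. All 24 arrays in 1 fit gave 11 for Matrigel in Fz4-/-, 0 for Norrin in Fz4-/- and 6 for the Norrin interaction, where Cyp51, Fdps, Idi1 and Scd2 lost their call. Probe sets without suffixes reversed Msmo1 for Norrin in wild type (-0.08) and Lss for genotype with control (0.13) and with Norrin cells (0.14), since another set then stands for the gene.

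Leaving out 1 array at a time gave 2 to 4 members for genotype on gelatin, 2 to 6 on Matrigel (the 2 without wild type replicate 2 or 3), 2 to 6 for Matrigel in wild type (the 2 without Matrigel replicate 2 or 3), 3 to 16 in Fz4-/- (the 16 without gelatin replicate 1, the 3 without gelatin replicate 2 or 3 or Matrigel replicate 2), 0 to 0 for its interaction, 11 to 18 for Norrin in wild type, 1 to 2 in Fz4-/- (1 without control or Norrin replicate 2 or 3), 8 to 10 for its interaction, and 19 to 22 and 27 to 30 for genotype with control and Norrin cells. With the replicate number as a block, the pairing gave 4, 7, 4 and 6 members for genotype on gelatin and Matrigel and for Matrigel in wild type and Fz4-/-, and 17, 2 and 10 for Norrin in wild type, in Fz4-/- and its interaction, and 25 and 30 for genotype with control and Norrin cells. Calls it changed, beside Hmgcs1 and Srebf1 above, were Insig2 on gelatin, Dhcr7 and Srebf1 for genotype on Matrigel, Acly for Norrin in wild type and Srebf1 for genotype with Norrin cells, all gained. Calls were counted over alternatives for member results that passed in the main fit or changed their call under an alternative. All results of Insig1, Srebf1, Srebf2, Abca1, Abcg1, Scd1 and Scd2 were counted too. Of these values, 3265 kept their side of the threshold, with either sign where neither fit passed. A further 240 lost and 148 gained a call, and 12 reversed. Dim probe sets and 3 arrays per group limit what could be detected.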
